A study of Mus musculus with 29 samples.

Results

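Cation-chloride cotransporters carry chloride across the plasma membrane together with sodium ions, potassium ions or both. Here 6 genes of this family, Slc12a2, Slc12a4, Slc12a5, Slc12a7, Slc12a8 and Slc12a9, were followed in sorted cells of the adult mouse retina. The members were taken by their symbol from an RNA-seq table of 24062 genes, and all 6 were found in it. The study compared bipolar cells, the interneurons that carry the photoreceptor signal to the inner retina, with rods and cones by RNA-seq and by ATAC-seq, which reads open chromatin. Fluorescence-activated cell sorting gave RNA-seq libraries (n = 3 each) of the whole bipolar class, written pan-BC, of its ON and OFF divisions, written ON-BC and OFF-BC, and of rods and blue cones. The ATAC-seq table held the same populations and green cones, each with n = 2 libraries. The peak files also cover 2 further green cone libraries from a double sort, which are not in that table and enter no test. Each bipolar RNA-seq library came from a pool of retinas, both retinas of a single mouse for pan-BC and the retinas of a pair of mice for ON-BC and OFF-BC. P-values measure the spread between these pools.

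All bipolar mice carried Otx2-GFP+/-, a GFP cassette at 1 allele of Otx2, which also marks photoreceptors weakly. Pan-BC for RNA-seq were Otx2-GFP+/- without a YFP transgene, at postnatal day 44 to 47. ON-BC and OFF-BC were Otx2-GFP+/-; Grm6-YFP+/+ at postnatal day 42 to 48, with YFP driven by the Grm6 promoter in ON cells. Pan-BC for ATAC-seq are labelled Otx2-GFP+/-; Grm6-YFP+/+, at postnatal day 43 and 44. OFF-BC alone among the bipolar populations were sorted a second time, so cell type and second sort cannot be told apart in ON-BC versus OFF-BC. In RNA-seq, the Grm6-YFP transgene likewise separates ON-BC and OFF-BC from pan-BC. ON-BC and OFF-BC libraries of the same replicate number came from mice of the same age, and whether from the same mice was not given in the sources used here. Rods were Nrl-eGFP and green cones Opn1mw-GFP. The cells called blue cones were Nrl-eGFP;NrlKO, photoreceptors that lack Nrl and stand in for native blue cones, which they are not. All photoreceptors were taken at postnatal day 56 and come from an earlier study by the same group. Cell class, genotype, age and study therefore cannot be told apart in any comparison of bipolar cells with photoreceptors. The study states that 1 ON type, BC5D, was missing from both ON-BC and OFF-BC.

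The sign of the response to GABA and glycine depends on how much chloride a neuron holds, and these transporters help to set that level. Slc12a2 encodes NKCC1, which brings sodium, potassium and chloride in. Slc12a5 encodes KCC2, the potassium-chloride exporter of neurons, and Slc12a4 and Slc12a7 encode the more widespread exporters KCC1 and KCC4. Slc12a8 and Slc12a9 are distant relatives whose role in chloride transport is less settled. In the retina, bipolar cells receive GABA and glycine from amacrine cells on their axon terminals, and KCC2 and NKCC1 have been placed in different compartments of bipolar cells by staining.

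The populations were checked against marker genes before the members were read. The summed normalized count of 8 rod markers lay between 1822805 and 2504629 in rods, while pan-BC held 33444 to 42037, ON-BC 20348 to 25582 and OFF-BC 3617 to 17906. The sum of 8 cone markers was 1508741 to 1732040 in blue cones, while pan-BC held 41609 to 67623, ON-BC 4637 to 5255 and OFF-BC 22625 to 92762. No rod or cone marker was at 0 throughout a population, and the part of such reads in the results was not tested. OFF-BC held 7.13% of the ON-BC sum of 5 ON markers, and ON-BC held 4.99% of the OFF-BC sum of 5 OFF markers. These sums were led by the most abundant markers: all 5 ON markers were higher in ON-BC, while 4 of the 5 OFF markers were higher in OFF-BC and 1 was higher in ON-BC. Summed markers of other cells were far below the rod sum of rods and the cone sum of blue cones. Over all libraries they were 1373 to 3822 for Muller glia (8 genes), 327 to 2448 for amacrine cells (7 genes), 20.2 to 217 for endothelium (4 genes) and 3.08 to 293 for microglia (4 genes). The Muller glia sum of OFF-BC, 2819 to 3822, overlapped with its rod marker sum. In rods the amacrine sum was led by Slc6a9, with a mean of 2271. Libraries held 12329548 to 26266746 counted RNA-seq reads, and 4176776 to 12345845 ATAC-seq reads. In sorted bulk samples, fewer cells of a type and less RNA per cell cannot be told apart.

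Slc12a5, on chromosome 2 at chr2:164960846-164999731 (GRCm38, plus strand), was the most abundant member in every population and was higher in bipolar cells than in photoreceptors. Its normalized count, the read count divided by a library's size factor, was 7696, 7748 and 8216 in the 3 pan-BC libraries. ON-BC gave 8496, 9091 and 8546, and OFF-BC gave 8473, 9601 and 10553. Every bipolar library was far above the photoreceptor libraries, which were 1064, 1029 and 1142 in rods and 1412, 1574 and 1554 in blue cones. The group means were 7887 ± 287 (SD, n = 3) for pan-BC, 8711 ± 330 for ON-BC, 9542 ± 1041 for OFF-BC, 1079 ± 57.7 for rods and 1513 ± 88.5 for blue cones.

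A gene was called different where its log2 difference, on the scale of log2(normalized count + 1), was larger than 1 by limma's treat test at an adjusted p below 0.05. By that test the pan-BC level of Slc12a5 was higher than in rods by 2.87 (SE 0.10, limma adjusted p = 1.9e-11) and higher than in blue cones by 2.38 (SE 0.10, limma adjusted p = 2.2e-09). As ratios of mean normalized counts these are 7.31-fold and 5.21-fold. ON-BC and OFF-BC were each called higher than rods, with log2 differences of 3.01 and 3.14, and higher than blue cones, with 2.53 and 2.65. Within bipolar cells the levels were close: ON-BC minus OFF-BC was -0.13, with a 95% interval of -0.33 to 0.08. Rods minus blue cones was -0.49, with an interval of -0.69 to -0.28, so rods were the lower of the photoreceptors by less than the tested size. Against the single value 0, without a minimum size, that difference passed (limma adjusted p = 0.000413). In order of mean level came OFF-BC, ON-BC, pan-BC, blue cones and rods. OFF-BC and ON-BC overlapped, and pan-BC lay below both by differences of 0.27 and 0.14 that were not called. Blue cones and rods did not overlap each other.

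**Figure D1:**
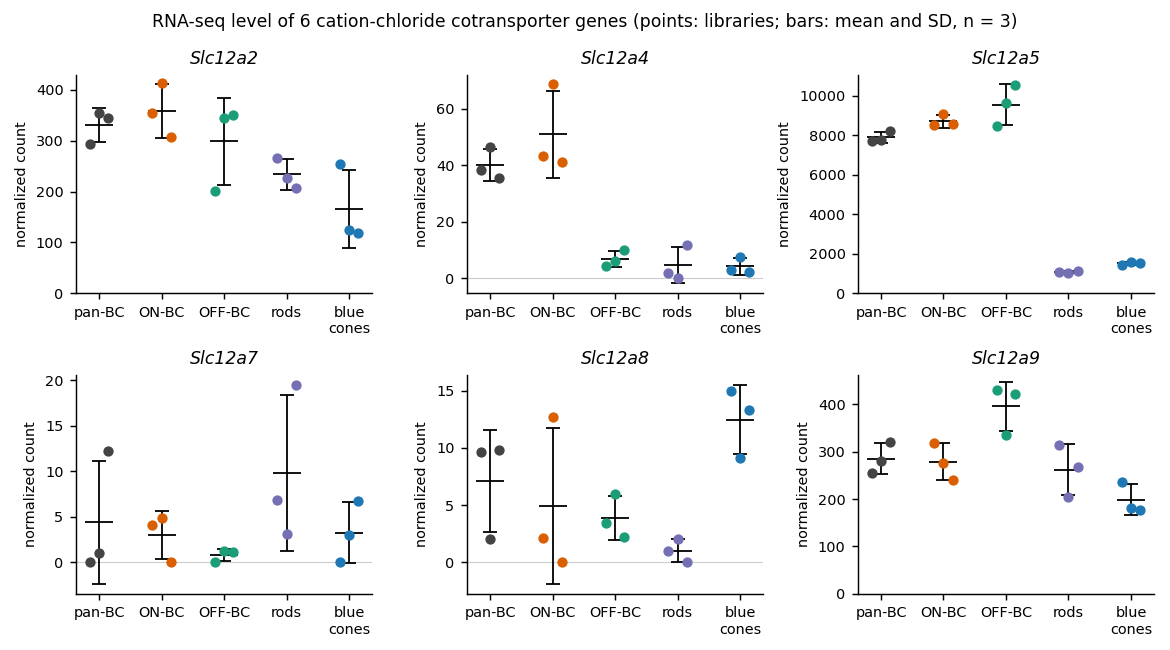
Normalized RNA-seq count (linear axis) of each of the 6 members in pan-BC, ON-BC, OFF-BC, rods and blue cones. Points are libraries and bars are the mean and SD (n = 3). Slc12a5 lies between 7696 and 10553 in bipolar cells and between 1029 and 1574 in photoreceptors, and Slc12a4 is at 35.5 or more in pan-BC and ON-BC and at 11.9 or less elsewhere.

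Photoreceptor libraries were not empty of Slc12a5 reads. Rods held 13.7% and blue cones 19.2% of the pan-BC level. Of 14 bipolar marker genes, 12 were lower than that in rods relative to pan-BC, between 0.0509% and 1.01%. The exceptions were Otx2 at 72.3%, a factor that photoreceptors also express, and Prkca at 18.7%. In blue cones 12 of 14 were also lower, and the exceptions were Cabp5 at 71.2% and Otx2 at 70.7%. The Slc12a5 share was thus above that of most of these markers in the same libraries, while the marker shares themselves varied widely. Which cells the Slc12a5 reads of rods and blue cones came from was not tested.

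Slc12a4, on chromosome 8 at chr8:105943590-105966115 (minus strand), was a low but patterned member. Its normalized count was 38.3, 46.4 and 35.5 in pan-BC and 43.3, 68.6 and 41.0 in ON-BC. OFF-BC had 4.5, 6.0 and 9.9, rods 1.9, 0 and 11.9, and blue cones 3.0, 7.6 and 2.2. The pan-BC and ON-BC libraries did not overlap with any OFF-BC, rod or blue cone library. These values rest on few reads, 29 to 70 per library in pan-BC and ON-BC and 0 to 11 in the other 3 populations.

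For Slc12a4, pan-BC exceeded rods by 3.60 on the log2 scale (SE 0.68, limma adjusted p = 0.0021) and blue cones by 3.09 (SE 0.68, limma adjusted p = 0.0116). ON-BC exceeded rods by 3.91 (limma adjusted p = 0.000892) and blue cones by 3.4 (limma adjusted p = 0.00496). OFF-BC was not called against rods, at 1.16 with an interval of -0.28 to 2.60, or against blue cones, at 0.64 with an interval of -0.80 to 2.08. The difference of ON-BC minus OFF-BC was 2.76 (SE 0.68, interval 1.32 to 4.20) and missed the threshold (limma adjusted p = 0.127). That call depended on the test. On reads recovered from the normalized counts it was made by edgeR (adjusted p = 0.0156) and by DESeq2 (adjusted p = 0.0423). Fitted on ON-BC and OFF-BC alone it was made without (limma adjusted p = 0.0171) and with (limma adjusted p = 0.0362) the replicate number as a block. In all it was made in 6 of 15 alternatives, whose adjusted p ranged from 0.00573 to 0.388. OFF-BC minus pan-BC was -2.45 (limma adjusted p = 0.414), and no OFF-BC library reached the lowest pan-BC library.

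Slc12a2, the chloride importer NKCC1 on chromosome 18 (plus strand), differed far less between cell classes. The pan-BC libraries gave 292.5, 355.1 and 343.8, ON-BC gave 353.9, 413.5 and 307.8, and OFF-BC gave 200.1, 344.8 and 350.9. Rods gave 266.8, 227.4 and 206.4, and blue cones gave 255.0, 124.4 and 117.7. Pan-BC libraries were all above the rod and blue cone libraries, but OFF-BC overlapped with both. Pan-BC minus rods was 0.50 (interval -0.06 to 1.06, limma adjusted p = 1) and pan-BC minus blue cones was 1.08 (interval 0.52 to 1.64, limma adjusted p = 0.76), and neither was called. ON-BC minus OFF-BC was 0.30, with an interval of -0.26 to 0.86.

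Slc12a9, on chromosome 5 at chr5:137314558-137336860 (minus strand), was present in every library, and none of its differences was called. Pan-BC gave 255.3, 280.4 and 320.6, ON-BC 318.8, 276.3 and 241.1, and OFF-BC 430.3, 336.4 and 422.6. Rods gave 313.4, 204.9 and 268.0, and blue cones gave 236.9, 182.1 and 177.6. OFF-BC was the highest population and did not overlap with any other, yet ON-BC minus OFF-BC was only -0.51 (interval -0.90 to -0.12) and was not called. OFF-BC minus blue cones was its largest difference, 1.00 (interval 0.61 to 1.38), 1.99-fold as a ratio of means, and pan-BC minus blue cones was 0.53 (interval 0.14 to 0.91). Pan-BC minus rods was 0.14 (interval -0.25 to 0.53), and its sign turned when rod replicate 2 was left out, to -0.03.

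Slc12a8, on chromosome 16 at chr16:33517328-33664138 (plus strand), was low in all populations, with its highest mean in blue cones. Blue cones gave 15, 9.1 and 13.3, from 20, 12 and 18 reads. Rods gave 1.0, 2.0 and 0, from 1, 2 and 0 reads. Pan-BC gave 9.6, 2.0 and 9.8, ON-BC 2.1, 12.7 and 0, and OFF-BC 3.4, 6.0 and 2.2. Blue cones and rods did not overlap, while each bipolar population spanned a wide range. Rods minus blue cones was -2.86 (SE 0.79, limma adjusted p = 0.0883), which was not called and, with so few reads, depends on the 1 added before the logarithm. With 50 reads in blue cones and 3 in rods, edgeR on the recovered reads called it (adjusted p = 0.0363), and DESeq2 on the same reads did not (adjusted p = 0.196).

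Slc12a7, on chromosome 13 at chr13:73763660-73816754 (plus strand), which encodes KCC4, was removed by the filter on low counts and was not tested. Pan-BC libraries held 0, 1 and 10 of its reads, ON-BC 4, 5 and 0, OFF-BC 0, 1 and 1, rods 7, 3 and 18, and blue cones 0, 4 and 9. No population held it above 18 reads in any library, and the populations overlapped. The exons of the 6 members shared no base with an exon of another gene in RefSeq, whether or not strand was used in counting.

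All calls by pair are best read against the share of all genes that passed. In pan-BC versus rods 2 of 5 tested members were called where 43.6% of 14024 tested genes were, and in pan-BC versus blue cones 2 of 5 where 36.3% were. In ON-BC versus rods 2 of 5 were called against 41.7%, and in ON-BC versus blue cones 2 of 5 against 34.8%. OFF-BC gave 1 of 5 against 42.6% for rods and 1 of 5 against 35.5% for blue cones. No member was called in rods versus blue cones, where 15.9% of genes were, in ON-BC versus OFF-BC, where 6.55% were, in ON-BC versus pan-BC, where 1.06% were, or in OFF-BC versus pan-BC, where 3.37% were. The share of members called was near or below that of all genes in each pair. These comparisons share libraries. The 10 calls were 6 of Slc12a5 and 4 of Slc12a4, all higher in bipolar cells. Slc12a4 passed the filter on low counts through its pan-BC and ON-BC reads, the populations where it is high. The direction of its calls is therefore not independent of that filter.

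Levels of different genes were compared per kilobase of exon. On that scale Slc12a5 averaged 1276 normalized counts per kilobase for pan-BC, 1409 for ON-BC, 1544 for OFF-BC, 175 for rods and 245 for blue cones. Slc12a9 averaged 69.1, 67.5, 96, 63.4 and 48.1 in the same order, and Slc12a2 averaged 50.7, 55, 45.8, 35.8 and 25.4. Slc12a5 thus made up 90.6% ± 0.596 (SD, n = 3) of the summed level of the 6 members for pan-BC, 91.1% ± 0.976 for ON-BC and 91.4% ± 0.469 for OFF-BC. It made up 63.1% ± 3.55 in rods and 75.7% ± 5.61 in blue cones, so it led in photoreceptors too, with Slc12a9 next at 22.7% ± 3.21 and 14.9% ± 2.20.

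The balance of exporter to importer was followed as the ratio of Slc12a5 to Slc12a2 per kilobase. Pan-BC gave 27.8, 23 and 25.2, ON-BC 25.3, 23.2 and 29.3, and OFF-BC 44.7, 29.4 and 31.7. Rods gave 4.21, 4.78 and 5.84, and blue cones 5.84, 13.3 and 13.9. Each bipolar library was above every photoreceptor library, and pan-BC and ON-BC overlapped. The lowest OFF-BC library was barely above the highest ON-BC library, at 29.4 against 29.3. The ratio is of RNA, not of transport.

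**Figure D2:**
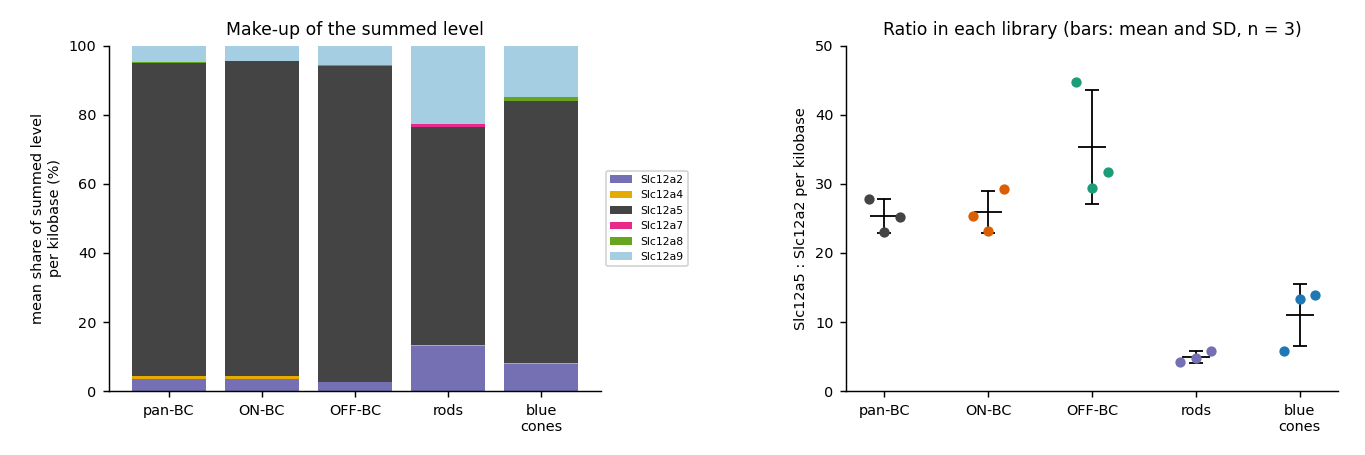
Left, mean share of each member in the summed normalized count per kilobase of exon of the 6 members (%, n = 3). Right, ratio of Slc12a5 to Slc12a2 per kilobase in each library, with the mean and SD. Slc12a5 takes 90.6% to 91.4% in bipolar cells and 63.1% to 75.7% in photoreceptors, and the ratio is 23 or more in every bipolar library and 13.9 or less in every photoreceptor library.

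The genes most like each member over the 15 libraries were listed as a description. Points share populations and library preparation, so r mainly follows the class difference. Slc12a5 was most like Dtx1 (r = 0.998), Dact3 (0.997) and Gabrr1 (0.996), all higher in bipolar cells. Gabrr1 encodes a rho subunit of the GABA receptor, with means of 15516 for pan-BC, 61.5 for rods and 165 for blue cones. Slc12a4 was most like Sorl1 (0.957), St18 (0.951) and Igfn1 (0.944), which were also low in OFF-BC, at 55.8, 86.1 and 35.7 against 1472, 2672 and 607 in ON-BC. Slc12a2 was most like Dennd4b (0.961), Tab2 (0.945) and Smurf1 (0.944), and Slc12a9 like Lemd2 (0.926), Tbc1d5 (0.912) and Mapkbp1 (0.881). For Slc12a8 the leading genes were Mut (0.852), Satb1 (0.842) and Myh10 (0.833), each highest in blue cones.

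The members were set beside 72 genes that act with them, of which 71 were in the table and 52 tested. Of these, 22 were called higher and 6 lower in bipolar cells (pan-BC) versus rods, where 27.8% and 15.8% of all tested genes were, with a median of 1.42 beside 0.21 over all genes. Against blue cones 21 were higher and 7 lower, where 22.7% and 13.7% of all genes were, with a median of 1.24 beside 0.16. Rods versus blue cones gave 5 higher and 11 lower, where 4.63% and 11.3% of all genes were. The chloride channels gated by GABA or glycine gave the most calls of any group on the list: of 24 listed and 16 tested, 15 were higher versus rods and 11 versus blue cones, and 0 were lower in either. By the rule of largest change the genes named are Glra1, a glycine receptor subunit, at 1085 ± 18.5 for pan-BC, 1.76 ± 2.27 for rods and 6.73 ± 3.21 for blue cones, and Gabra5, a GABA receptor subunit, at 591 ± 71 in pan-BC and 0.72 ± 1.25. Gabrr2, another rho subunit, was 30334 ± 3596 in pan-BC and 198 ± 63.4 in blue cones.

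Genes higher in photoreceptors were of other kinds. Ano2, a calcium-activated chloride channel, averaged 3285 ± 512 in rods and 5321 ± 367 in blue cones, and 238 ± 17.5 for pan-BC. Slc26a6, an anion exchanger, averaged 813 ± 98.1, 1146 ± 96 and 133 ± 41.5 in the same order. Slc26a4, which encodes pendrin, was 41.6 ± 19.2 in blue cones and 1.84 ± 0.708 in pan-BC. Between photoreceptors, Klhl3, a ubiquitin ligase adaptor of the WNK kinases, and Slc26a11 were higher in rods, at 745 ± 21.7 and 438 ± 30.5 against 20.3 ± 11.2 and 97.1 ± 22.4 in blue cones. Gabrd and Gabra5 were higher in blue cones, at 262 ± 45.9 and 88.2 ± 5.02, than in rods, at 3.59 ± 5.32 and 0.72 ± 1.25.

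Of the 11 kinases and adaptors that regulate the transporters, 2 were higher and 4 lower in bipolar cells (pan-BC) versus rods, and 4 higher and 1 lower versus blue cones. Of 6 sodium pump genes, 1 was higher and 0 lower versus rods, and 1 higher and 1 lower versus blue cones. The 7 tested chloride channels of other kinds gave 1 higher and 1 lower versus rods, and 3 and 3 versus blue cones. The 7 tested anion exchangers gave 2 higher and 1 lower, and 2 and 2. Of 3 tested proteins that bind KCC2 or its partners, 1 was higher versus rods and 0 were called versus blue cones. The other 3 genes of the family gave 2 that were tested and 0 calls in these comparisons. These groups are small, and their counts are values to be set beside the shares of all genes given above. In ON-BC versus OFF-BC 0 of the 52 genes were higher and 2 lower, where 2.95% and 3.6% of all genes were. Lrrc8e, a subunit of the volume-regulated anion channel, was 0, 1.0 and 3.1 in ON-BC and 46.9, 42.0 and 39.7 in OFF-BC, a log2 difference of -4.45 (limma adjusted p = 3.08e-05). Atp1b3, a sodium pump subunit, was 39.2, 17.6 and 44.1 in ON-BC and 149.8, 176.6 and 163.3 in OFF-BC, -2.34 (limma adjusted p = 0.00425). None of the 16 tested ligand-gated channels was called there.

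The chromatin of the loci was read next. Of 110715 regions of 200 bases in the ATAC-seq table, 49 had a start site of a member as the nearest annotated start, and all 49 were tested among 108448. There were 16 at Slc12a2, 13 at Slc12a5, 12 at Slc12a8, 4 at Slc12a7, 3 at Slc12a9 and 1 at Slc12a4. Nearness does not show which gene a region acts on. Regions are named by the position of their centre relative to the nearest start, negative upstream. Of the 49, 11 were higher and 8 lower for pan-BC versus rods, where 38.9% and 10.4% of all regions were, and the member median of -0.52 lay under the 1.16 of all regions. Against the 4 cone libraries taken as 1 group, 11 were higher and 2 lower, where 27.8% and 7.42% of all regions were. In rods versus cones 0 were higher and 2 lower, where 0.503% and 8.92% were, and in ON-BC versus OFF-BC 1 was higher and 0 lower, where 3.35% and 2.13% were.

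At Slc12a5 the regions called versus rods ran the other way from the RNA. Of its 13 regions 0 were called higher and 3 lower for pan-BC versus rods, and the median difference was -1.20. The region at +2771 gave normalized counts of 54.4 and 48.5 for pan-BC, 58.2 and 24.9 for ON-BC and 59.3 and 79.8 for OFF-BC. Rods gave 307.6 and 269.0, blue cones 165.8 and 153.9, and green cones 168.3 and 154.9. No bipolar library reached a photoreceptor library. The log2 difference was -2.46 against rods (limma adjusted p = 0.000362) and -1.63 against cones (limma adjusted p = 0.0435), the latter lost in 7 of 12 alternatives.

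The region at -708, upstream of the inner start of the gene and inside an intron of its longer transcripts, gave 59.2 and 55.9 in pan-BC and 265.6 and 257.5 in rods, -2.17 (limma adjusted p = 0.00223). Blue cones gave 158.0 and 161.9, and green cones 146.8 and 91.5. The region at +214, in an exon, gave 104.8 and 86.7 in pan-BC and 337.2 and 309.7 in rods, -1.75 (limma adjusted p = 0.0181), a call lost without pan-BC replicate 2 (0.102) or rod replicate 1 (0.0862). At -708, +214 and +2771 every rod library was thus above every other library and the bipolar libraries were the lowest. The regions at both start sites were not called, at -1.53 for the outer one (-26) and -0.85 for the inner one (-25). At the inner one ON-BC, at 94.1 and 73.2, overlapped with blue cones, at 73.8 and 78.8. The authors' peaks covered the inner promoter in all 14 libraries with a peak file and the outer promoter in 12.

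A single Slc12a5 region was called higher in pan-BC, and only against cones. At +8970, in an intron, pan-BC gave 45.6 and 25.1, ON-BC 50.8 and 63.0, and OFF-BC 16.2 and 19.5. Rods gave 3.1 and 6.1, blue cones 13 and 1.4, and green cones 3.1 and 0. Each bipolar library was above each photoreceptor library. Pan-BC minus cones was 3.34 (limma adjusted p = 0.0124, but 0.123 without pan-BC replicate 1) and pan-BC minus rods 2.69 (limma adjusted p = 0.0702). The authors called a peak there in 5 libraries, all bipolar.

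**Figure D3:**
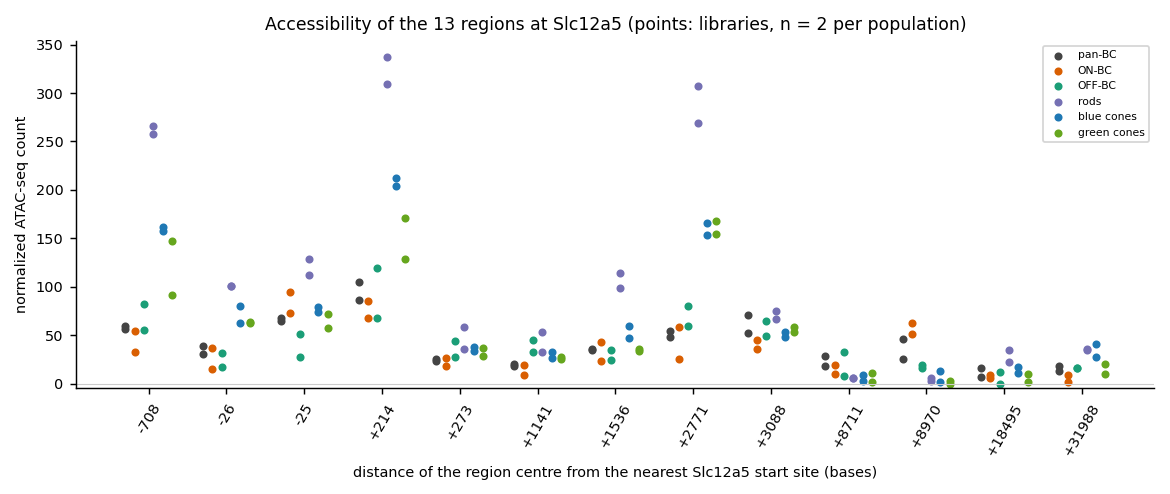
Normalized ATAC-seq count (linear axis) of the 13 regions at Slc12a5 by the distance of their centre from the nearest of the start sites of the gene, in bases. Points are libraries (n = 2 per population). Rods are the highest population at -708, +214 and +2771, with 257.5 to 337.2, and the bipolar libraries are the highest at +8970, with 16.2 to 63.0.

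Of the called Slc12a5 regions outside exons, 1 lower and 1 higher in pan-BC are printed to show what their letters hold. They were read from GRCm38 on the plus strand. The search was for the homeodomain words TAATCC, which CRX and OTX2 prefer, and TAATTA and TAATTG, on both strands, so that TAATCC can appear as GGATTA. The region at -708 (chr2:164967181-164967380) holds 2 copies of GGATTA, which its capitals mark. The region at +8970 (chr2:164976859-164977058) holds none of these words, so its capitals mark its 1 E-box, CANNTG, the word of bHLH factors.
Slc12a5 -708: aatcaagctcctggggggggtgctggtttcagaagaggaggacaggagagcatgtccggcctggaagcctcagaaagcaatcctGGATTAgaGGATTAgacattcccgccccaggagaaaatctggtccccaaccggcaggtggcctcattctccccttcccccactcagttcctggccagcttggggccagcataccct
Slc12a5 +8970: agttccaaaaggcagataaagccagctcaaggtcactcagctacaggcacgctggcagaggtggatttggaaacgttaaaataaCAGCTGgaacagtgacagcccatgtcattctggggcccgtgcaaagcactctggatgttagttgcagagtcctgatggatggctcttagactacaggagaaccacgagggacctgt

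The Slc12a5 region at +2771, also outside exons and called lower in pan-BC versus rods and versus cones, is not printed. It holds 1 copy of the last homeodomain word listed above, none of the other homeodomain words and no E-box. The word marked at -708 therefore does not stand for every lower region outside exons. The words searched are common. TAATCC was in 21.8% of all 110715 regions, TAATTA in 5.2%, TAATTG in 6.88% and CANNTG in 68.7%. Of the 33 member regions searched, which leave out those of Slc12a2, TAATCC was in 9 (27.3%), TAATTA in 1 (3.03%), TAATTG in 2 (6.06%) and CANNTG in 26 (78.8%). The promoters of Slc12a4, Slc12a5, Slc12a7, Slc12a8 and Slc12a9 in RefSeq, 9 windows of 300 bases on GRCm38, held none of the homeodomain words. Of 32851 RefSeq promoters of that length, 7.06% held TAATCC, 5.29% TAATTA and 8% TAATTG.

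At Slc12a8 accessibility was large where RNA was barely detected. The intronic region at +75697 gave 181.6 and 204.1 for pan-BC, 265.8 and 262.1 for ON-BC, and 59.3 and 61.3 for OFF-BC. Rods gave 4.7 and 1.4, blue cones 46.6 and 21.0, and green cones 33.8 and 50.7. Pan-BC was higher than rods by 5.73 (limma adjusted p = 8.56e-08) and higher than cones by 2.39 (limma adjusted p = 0.00359), and rods minus cones was -3.34 (limma adjusted p = 0.000138). The 4 pan-BC and ON-BC libraries were above OFF-BC, which were above all photoreceptors. ON-BC minus OFF-BC was 2.11 and was not called (limma adjusted p = 0.108).

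A second intronic region of Slc12a8, at +19148, gave 78.4 and 109.5 for pan-BC, 82.1 and 180.1 for ON-BC and 18.9 and 9.7 for OFF-BC. Photoreceptors gave 0 to 11.3. Pan-BC was higher than rods by 4.46 (limma adjusted p = 0.0012) and than cones by 4.85 (limma adjusted p = 0.000299). The region at +49940 went the other way, at 71.2 and 79.3 in pan-BC, 373.0 and 390.3 in rods and 136.0 to 167.6 in cones, with a pan-BC minus rod difference of -2.33 (limma adjusted p = 7.18e-05). Both kinds of region lay in 1 gene, 2 called higher and 3 lower for pan-BC versus rods. Another intronic region, at +66492, was called higher in pan-BC versus cones only. It gave 41.6 and 42.2 in pan-BC, 53.8 and 67.4 in ON-BC and 22.9 and 28.2 in OFF-BC, beside 16.4 and 22.4 in rods and 3.9 to 10.1 in cones. Pan-BC minus cones was 2.76 (limma adjusted p = 0.00266) and pan-BC minus rods 1.09 (limma adjusted p = 0.605). No peak covered any of the 3 start sites of Slc12a8 in any of the 14 libraries.

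The 2 Slc12a8 regions called higher in pan-BC versus both rods and cones are printed from GRCm38, plus strand. Capitals in the region at +75697 (chr16:33594133-33594332) mark its 1 GGATTA. Its 3 E-boxes are not marked. The region at +19148 (chr16:33537584-33537783) holds no homeodomain word searched, and capitals mark its 3 E-boxes.
Slc12a8 +75697: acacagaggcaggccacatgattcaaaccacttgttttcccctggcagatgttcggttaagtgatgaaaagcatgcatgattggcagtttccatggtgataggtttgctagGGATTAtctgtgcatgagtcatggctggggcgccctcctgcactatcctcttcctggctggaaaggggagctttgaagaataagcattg
Slc12a8 +19148: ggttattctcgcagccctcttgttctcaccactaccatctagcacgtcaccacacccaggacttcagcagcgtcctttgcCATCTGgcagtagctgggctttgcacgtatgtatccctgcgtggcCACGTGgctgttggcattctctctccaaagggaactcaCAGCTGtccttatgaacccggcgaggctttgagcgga

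Slc12a7 gave the same kind of contrast. Of its 4 regions, 3 intronic ones were called higher for pan-BC versus rods, although the gene had at most 10 reads in a pan-BC RNA-seq library. The region at +22933 gave 47.2 and 34.8 for pan-BC, 32.8 and 41.0 for ON-BC, 16.2 and 7.8 for OFF-BC and 0 and 0 for rods. Against a floor of 3 reads over both rod libraries, pan-BC was at least 37.7-fold higher. The regions at +12310 and +10048 were higher than in rods by 3.93 (limma adjusted p = 0.00074) and 2.99 (limma adjusted p = 0.00628), the latter not called without pan-BC replicate 2 (0.0628). The region at its start was not called, at 57.6 and 39.3 in rods and 17.6 and 14.8 in pan-BC.

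At Slc12a2, 6 of 16 regions were called higher and 1 lower for pan-BC versus rods, while the RNA differed by 0.50. Distal regions downstream carried the largest differences. At +134644 pan-BC gave 66.4 and 80.4, ON-BC 86.6 and 99.6, OFF-BC 16.2 and 20.4, and rods 0 and 0, at least 67.5-fold higher in pan-BC than the rod floor. At +119064 pan-BC gave 36.8 and 51.9 and rods 0 and 0, at least 40.8-fold higher. The region at -36284 was the reverse, at 30.4 and 31.9 in pan-BC, 323.2 and 270.4 in rods and 191.7 to 245.0 in cones, a log2 difference of -3.21 against rods (limma adjusted p = 2.21e-06) and -2.78 against cones (limma adjusted p = 1.61e-05). The 3 regions at its start site were open in all populations, with no call.

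A single region, Slc12a2 +164679, was called in ON-BC versus OFF-BC. ON-BC gave 40.3 and 14.6, OFF-BC 0 and 1.9, pan-BC 14.4 and 6.8, and it was 1.4 or less in all photoreceptors. The log2 difference of 3.89 passed narrowly (limma adjusted p = 0.0444) and was lost in 8 of 10 alternatives. With the replicate number as a block, and only ON-BC and OFF-BC libraries in the fit, 5 regions were called in place of 1. A peak was called at +164679 in 1 library, of ON-BC. The only region of Slc12a4, at +4489 in an intron, gave 20.9 and 32.2 in ON-BC and 18.9 and 22.4 in OFF-BC. The log2 difference was 0.32, with an interval of -1.19 to 1.83. That interval overlaps the one of the RNA difference, 1.32 to 4.20, which was not called in the main fit. These few libraries cannot decide whether region and RNA differ alike. That region was higher in pan-BC, at 40.8 and 18.8, than in cones, at 1.4 to 6.9, by 2.64 (limma adjusted p = 0.027, but 0.245 without pan-BC replicate 1), and no peak covered the Slc12a4 start in any library.

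At Slc12a9 the region at -1555 was lower in pan-BC, at 156.0 and 114.0, than in rods, at 433.8 and 397.8, with a difference of -1.63 (limma adjusted p = 0.00911, but 0.11 without pan-BC replicate 2). Its inner start was covered by a peak in all 14 libraries and was not called, with -0.89. The gene's RNA minus rods was 0.14. Side by side, the RNA difference and the median region difference of pan-BC minus rods were 3.60 and 1.76 for Slc12a4, 2.87 and -1.20 for Slc12a5, 0.50 and 1.78 for Slc12a2, 1.95 and -1.54 for Slc12a8 and 0.14 and -0.89 for Slc12a9. At Slc12a5 the RNA was called higher versus rods and the 3 regions called versus rods were lower. The RNA differences of Slc12a8 (limma adjusted p = 0.248) and Slc12a9 were not called, so no direction is read from them. Whether the regions act on these genes was not tested.

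**Figure D4:**
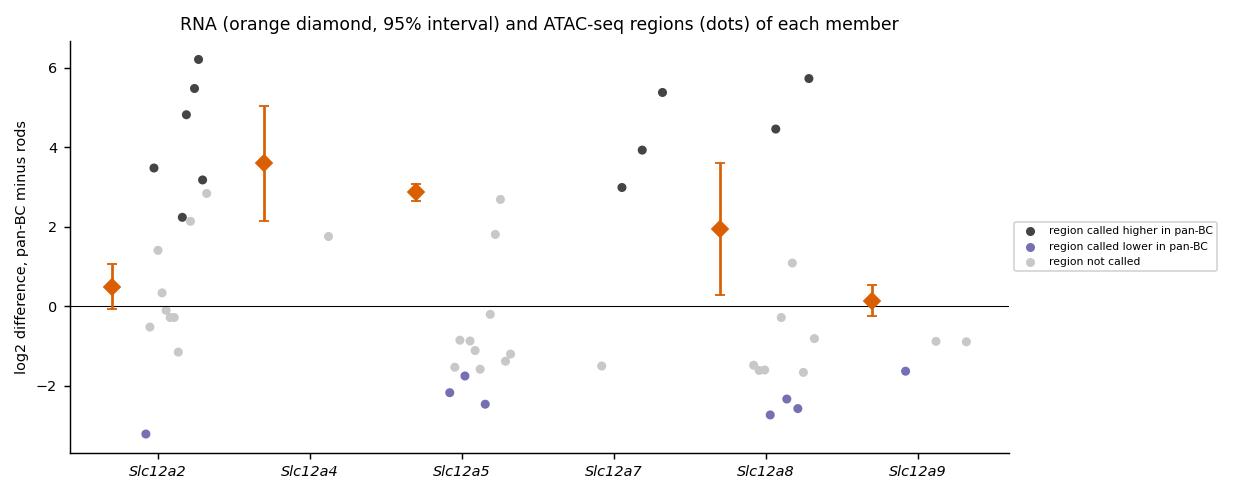
Log2 difference of pan-BC minus rods for the RNA of each member (orange diamond, 95% interval) and for each of its ATAC-seq regions (dots, coloured by call). Slc12a7 has no diamond because it was removed by the filter on low counts. At Slc12a5 the RNA is at 2.87 and 3 regions are called lower, and at Slc12a7 3 of 4 regions are called higher.

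**Figure D5:**
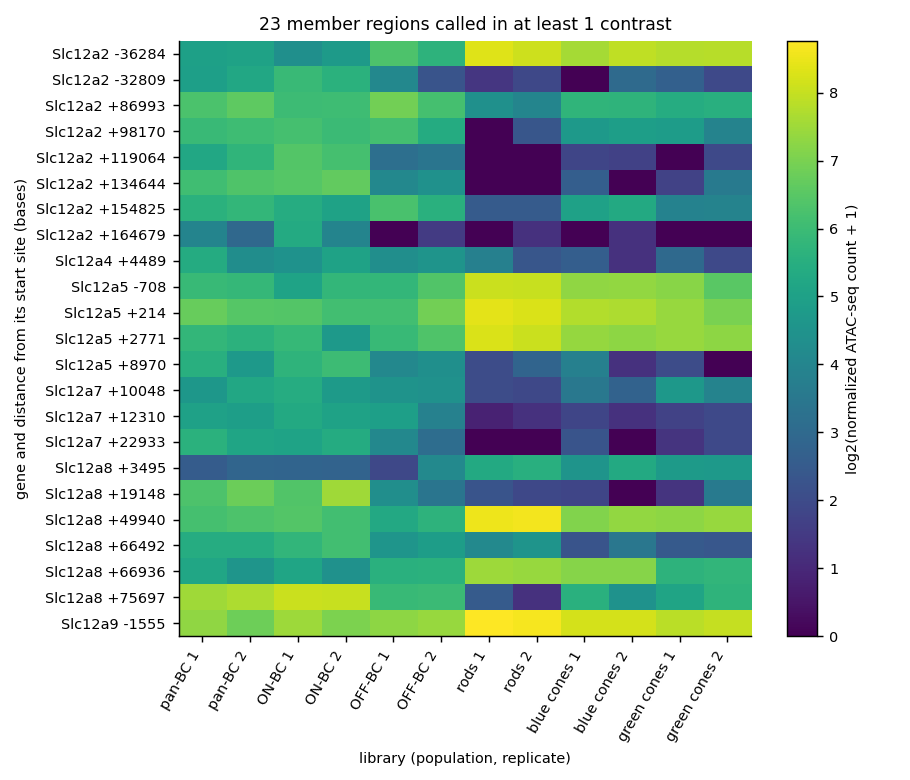
Colour gives log2(normalized ATAC-seq count + 1) of the 23 member regions called in at least 1 contrast, by library (columns) and by gene and distance from its start in bases. Slc12a8 +75697 is brightest in ON-BC and darkest in rods, and Slc12a5 -708, +214 and +2771 are brightest in rods.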

How the data were processed

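RNA-seq (15 libraries) and ATAC-seq (12 libraries) of sorted mouse retinal cells were analysed. The submitters' processing notes name STAR 2.7.0d, Bowtie2 2.2.5, MACS2 2.1.1 and mm10. The deposited normalized counts (signal) of genes and of 200-base regions were made by the authors by dividing read counts by 1 size factor per library, and reads recovered from them were whole in 100.0% of values above 0, within 0.01 read. The peak files deposited for 14 ATAC-seq libraries hold a fold enrichment, a -log10 q and a score computed by the authors with MACS2. Whether reads were counted by strand was not given in the sources used here.

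Values were tested as log2(normalized count + 1) after edgeR's filterByExpr (edgeR 4.0.16), with all libraries of an assay in 1 fit, by limma 3.58.1 (treat, log2 fold change 1) with Benjamini-Hochberg adjustment at 0.05. Blue and green cones were 1 cone group in ATAC-seq. edgeR and DESeq2 1.42.0 on recovered reads, other pseudocounts, scaling, filters and left-out libraries were alternatives. Every member is named. Of the lists, genes called between ON-BC and OFF-BC and the 2 largest called changes in each direction of the other comparisons are named, and 3 genes by likeness among those with a mean of 100 or more. Figures plot these values. Peaks overlapped by 1 base or more, and a promoter ran from 1000 bases before to 100 after a start. Starts and promoter sequences came from RefSeq. Sequences of 4 of the 23 called regions are printed, and the others are not reported here. The members and lists were chosen with earlier results of these data known. Scripts were tested on simulated data. Counting floors cover counting error only.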

Additional observations from a re-analysis of the deposited data

Results flagged for a closer look

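Of 23 called regions, 2 had a library standing apart among the 4 cone libraries, where chance gives about 1 group in 20 for normally spread values. That rate does not hold for counts near 0. At Slc12a2 +164679, blue cone replicate 2 was at 1.4 and the other 3 cone libraries were at 0, so its gap was 1 of the whole range, above Dixon's limit. With the other 3 at 0, any value above 0 gives a gap of 1, so this flag carries no weight. At Slc12a8 +66492, blue cone replicate 2 was at 10.1 and the other cone libraries were at 3.9, 4.6 and 4.2, a gap of 0.887 of the range.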

How the results depend on the processing

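Of 680 re-estimates of 55 member and region values, 624 kept direction and side of the threshold, 36 lost and 13 gained the call, and 7 turned sign. The cause was not tested. Those were Slc12a9 in pan-BC versus rods without rod replicate 2 (-0.03; -0.03 to 0.28 with 1 library left out), Slc12a4 in rods versus blue cones without rod replicate 2 (0.36; -1.49 to 0.36), by edgeR (0.07) and by DESeq2 (0.08), and Slc12a8 in ON-BC versus OFF-BC without ON-BC replicate 3 (0.49; -1.40 to 0.49), by edgeR (0.38) and by DESeq2 (0.37). Of 104 re-counts, 22 moved by over 1.5 times. Members called in pan-BC versus blue cones went from 2 to 4 tested against 0. In rods versus blue cones they went from 0 to 2 tested against 0, and to 1 with only these populations or with edgeR. In ON-BC versus OFF-BC they went from 0 to 1 (Slc12a4) with a pseudocount of 5, tested against 0, with only these populations, with the replicate block, with edgeR and with DESeq2. Regions called in ON-BC versus OFF-BC went from 1 to 3 with a pseudocount of 5, 0 without the filter, 0 with TMM scaling, 5 with the replicate block, 4 with edgeR, 2 with DESeq2 and 0 to 1 with 1 library left out (0 without ON-BC replicate 1 or OFF-BC replicate 1). In pan-BC versus cones they went from 13 to 8 to 12 with 1 library left out (8 without pan-BC replicate 1). In rods versus cones they went from 2 to 4 with edgeR and 1 to 2 with 1 library left out (1 without rod replicate 1). The replicate block, fitted there on rods and blue cones without green cones, gave 0.

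Same-numbered ON-BC and OFF-BC libraries share an age, but the sources used here do not state a pairing by mouse. Their deviations correlated at -0.076, 0.222 and -0.065 in RNA-seq and at 0 in ATAC-seq. With so few libraries these correlations cannot decide whether the libraries were paired. The fit without the replicate block was the planned one and was kept. The block was fitted on the libraries of the compared populations alone. On ON-BC and OFF-BC alone Slc12a4 was called with the block (limma adjusted p = 0.0362) and without it (limma adjusted p = 0.0171). Over all genes, testing RNA against 0 raised calls from 6112, 5092, 2231 and 919 to 11156, 10704, 8068 and 3783 for pan-BC versus rods, pan-BC versus blue cones, rods versus blue cones and ON-BC versus OFF-BC. Over all regions, ON-BC versus OFF-BC gave 5940 calls (9696 with edgeR), 61.1% of them higher in ON-BC, but 49.8% with TMM scaling, 80.8% with a pseudocount of 5, 83.3% with the replicate block and 78.8% with DESeq2. Rods versus cones gave 10217 (5264 with a pseudocount of 5, 18262 with edgeR). The block, fitted there on rods and blue cones without green cones, gave 0. TMM scaling moved the median region by -0.18 in pan-BC versus rods, -0.21 in ON-BC versus OFF-BC and -0.23 in pan-BC versus cones. ATAC-seq values rest on 2 libraries per population, and the RNA values of Slc12a4, Slc12a7 and Slc12a8 on few reads.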
